A study of Homo sapiens with 6 samples.

Results

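The mitochondrial ribosomal protein genes are the 78 genes of the deposited table, out of 19960, whose symbol begins with MRPL or MRPS followed by a digit. All 78 passed the minimum normalized count for testing, so every one of them is accounted for below. They were compared between MKN28 cells, an established human gastric cancer cell line, that stably carry a plasmid for a short hairpin against LTBP1 (shLTBP1, 3 libraries) and MKN28 cells that stably carry a scrambled hairpin (shSCR, 3 libraries). Both groups therefore went through plasmid introduction and share the parental line; the labels name 1 hairpin per group and do not say whether the cells were a clone or a pool. The LTBP1 protein binds latent TGF-beta and anchors it in the extracellular matrix, and the study asked what its knockdown does to RNA levels. The labels do not say that libraries of a group are separate cultures, so p-values describe the spread among these libraries, which may be technical.

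The mitochondrial ribosome translates the few mRNAs of mitochondrial DNA, all of which encode subunits of the respiratory chain and of ATP synthase. Its RNAs come from mitochondrial DNA, but all its proteins are encoded in the nucleus by genes scattered over many chromosomes, made in the cytosol and imported. The large subunit forms peptide bonds, the small subunit reads the mRNA, and both contain proteins with bacterial counterparts beside proteins that bacteria lack. Symbols do not always tell the place of a protein: those of MRPS18A and MRPS30 sit in the large subunit, and that of MRPS36 belongs to the 2-oxoglutarate dehydrogenase complex of the citric acid cycle.

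The values are read counts normalized by the authors, given below as normalized counts. They summed to between 30479879 and 30941103 per library, and 14857 to 15098 genes had a value above 0. LTBP1 itself stood at 984 ± 24.2 in shSCR and 58.3 ± 8.89 in shLTBP1 (SD, n = 3; log2 fold change -4.07, limma adjusted p = 1.18e-08; exact two-sided permutation p = 0.1, the lowest value possible with 3 against 3). All 8 epithelial markers looked at were expressed enough to test, while endothelial markers summed to 23.9 to 51.2 per library and fibroblast markers to 706 to 1337, nearly all of it COL1A1. Of the epithelial markers, ELF3 (log2 fold change 0.93), CLDN4 (0.27) and KRT19 (0.22) rose, EPCAM (-1.12, on chromosome 2), CDH1 (-0.34) and KRT18 (-0.25) fell, and KRT8 and CLDN7 did not pass. Of the fibroblast markers, COL1A1 fell (-0.60), and LUM was listed at 0 in every shSCR library and at 41.5, 52.0 and 36.6 in shLTBP1 (limma adjusted p = 1.31e-05). Blood cell markers summed to 3.89 to 23.4 in 5 libraries and to 940.5 in shSCR replicate 3, where the globin gene HBA1 stood at 803. The part of these markers in the results was not tested. In bulk RNA, fewer cells of a type and less RNA per cell cannot be told apart.

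Most of these genes differed little between the groups, and the few large differences were mainly falls. On the log2(value + 1) scale used for every fold change here, the median over the 78 genes was -0.04, against 0.00 for all 12789 genes tested. The median size of the difference, regardless of sign, was 0.13 for these genes and 0.26 for all genes tested, and 73.1% of them lay within 0.25 of 0, against 49.1% of all. These sets are unlike in level: the lowest mean of a member was 397, whereas genes were tested from a mean of 10. The median size was 0.14 for nuclear genes of oxidative phosphorylation and 0.09 for cytosolic ribosomal protein genes, so small differences were not particular to the members. By limma, with Benjamini-Hochberg adjustment over all tested genes and a threshold of 0.05, 10 rose and 23 fell. That makes 33 of 78, or 42.3%, where 53.1% of all tested genes passed. The share that rose was 12.8% (26.3% of all tested genes), and the share that fell was 29.5% (26.8% of all). The groups were fully separated, with no shared range, for 39 of the 78, or 50% (60.8% of all tested genes), 12 of them higher in shLTBP1 (30.1% of all tested genes did so) and 27 lower (30.6%). A single member, MRPL36, passed the threshold with at least a 2-fold difference, as 8.92% of all tested genes did.

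**Figure D1:**
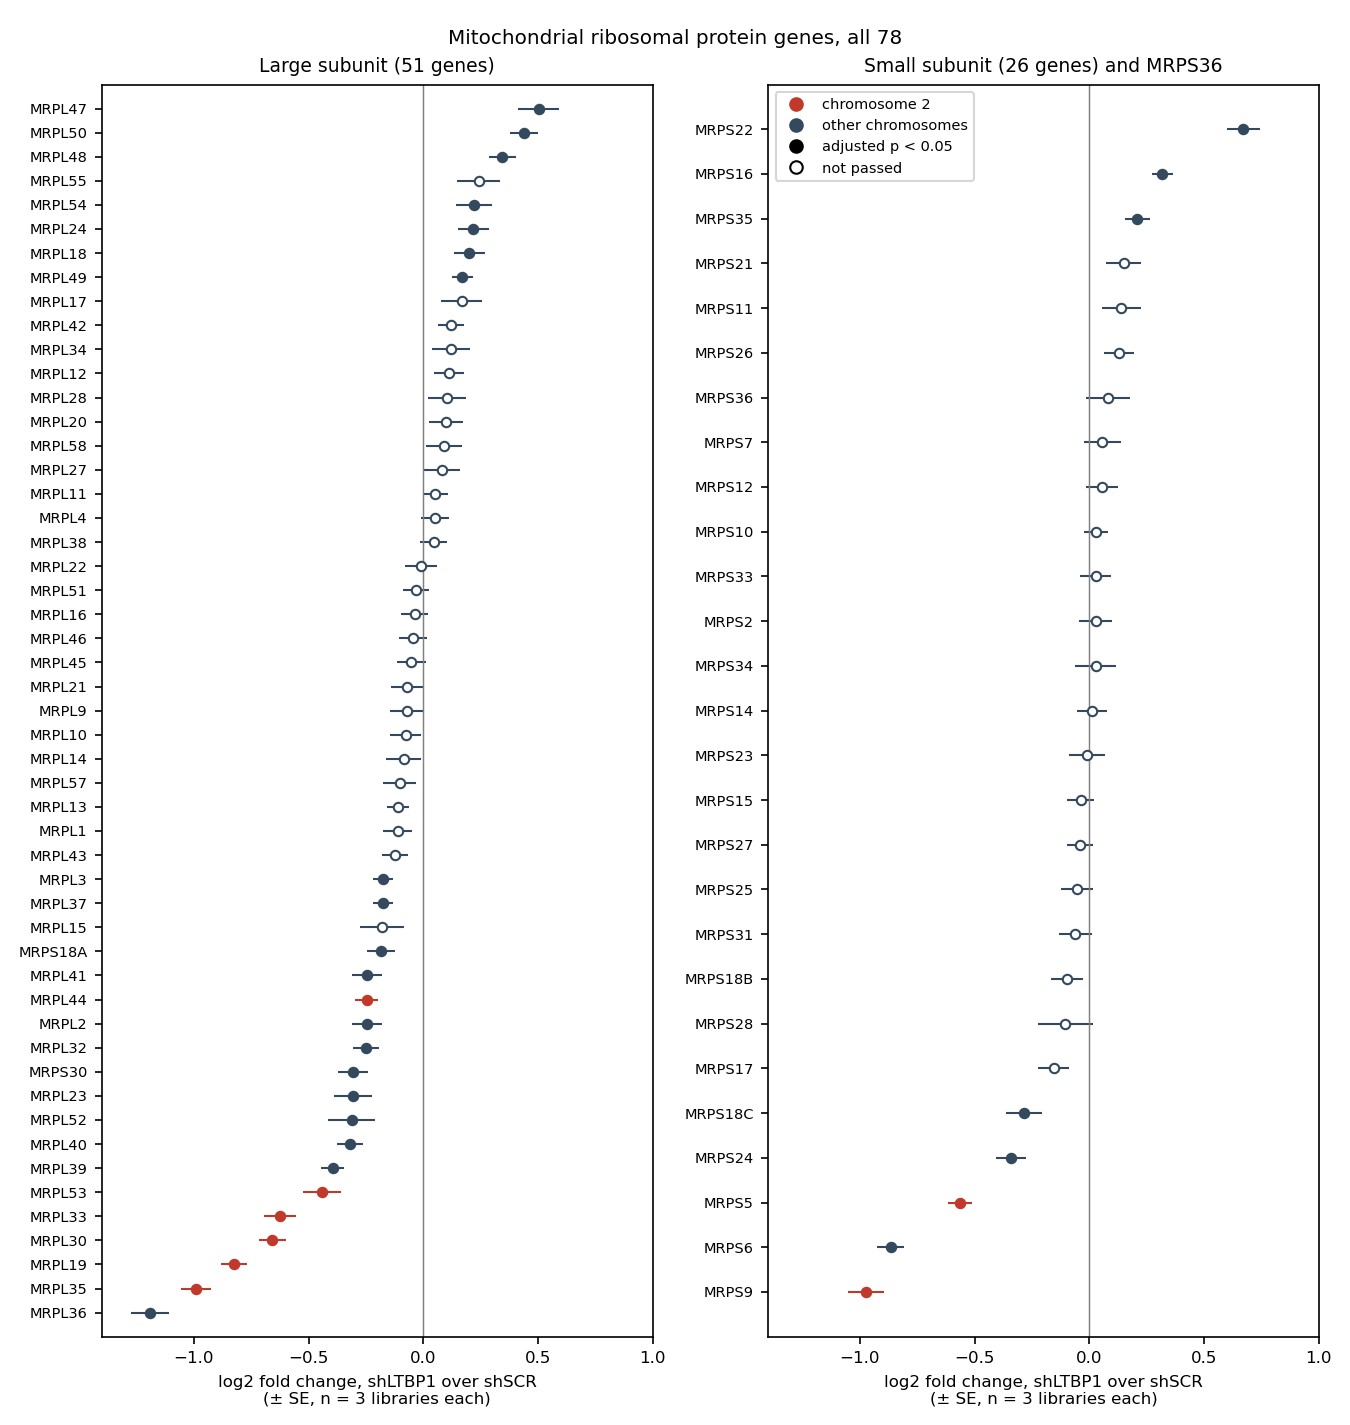
Log2 fold change of each of the 78 genes, shLTBP1 over shSCR, with its standard error (3 libraries per group), large subunit on the left and small subunit with MRPS36 on the right. Filled points passed the adjusted p threshold and red points lie on chromosome 2. Most points lie within 0.25 of 0, and the 8 chromosome 2 genes are all filled and all below 0.

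Some short words recurred at the starts of these genes, which the symbol rule selects. The genes they are set against are all those with a RefSeq window, whether expressed here or not. RefSeq promoter windows on GRCh38.p14, from 250 bases before to 50 bases after a start, were found for 69 of the 78 genes. The word CCGGAAG, a core that transcription factors of the ETS family such as GABPA recognize, occurred on either strand in 30 of these 69 (43.5%), against 12.2% of 27305 genes with such windows. The word ATGGCGG, the core of the site of the factor YY1, occurred in 24 (34.8%, against 6.66%). The word GCGCATG, from the palindromic site of the factor NRF1, occurred in 7 (10.1%, against 5.30%); its last letters can be shared with the YY1 word. The ETS word was in 6 of 10 genes that rose, in 8 of 20 that fell and had a window, and in 16 of 39 that did not pass. The YY1 word was in 3, 9 and 12 of these, and the NRF1 word in 1, 3 and 3. None of the 3 words was found in 20 of the 69 genes, and the shares were not tested against each other. A match to a word describes the sequence and says nothing of binding. The following stretches are the longest exon-free runs in the 250 bases upstream of a RefSeq start, written along the gene's own strand. They are shown for the 4 largest rises and the 4 largest falls that had such a run of at least 30 bases, with the words in capitals on whichever strand they lie.
MRPS22, chr3:139343744-139343955, plus strand, rose: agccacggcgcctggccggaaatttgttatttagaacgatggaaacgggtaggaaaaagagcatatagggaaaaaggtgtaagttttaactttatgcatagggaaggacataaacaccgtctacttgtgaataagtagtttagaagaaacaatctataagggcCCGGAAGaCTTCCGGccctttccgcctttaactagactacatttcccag
MRPL47, chr3:179604655-179604689, minus strand, rose: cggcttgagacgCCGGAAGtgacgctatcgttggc
MRPL50, chr9:101398619-101398868, minus strand, rose: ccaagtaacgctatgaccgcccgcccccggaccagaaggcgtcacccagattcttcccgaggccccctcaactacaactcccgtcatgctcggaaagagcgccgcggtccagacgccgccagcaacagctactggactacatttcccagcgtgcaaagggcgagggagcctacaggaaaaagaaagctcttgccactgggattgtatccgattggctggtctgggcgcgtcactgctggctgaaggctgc
MRPS16, chr10:73252694-73252790, minus strand, rose: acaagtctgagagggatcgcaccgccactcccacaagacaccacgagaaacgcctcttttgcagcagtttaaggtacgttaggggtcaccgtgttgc
MRPL36, chr5:1799896-1800087, minus strand, fell: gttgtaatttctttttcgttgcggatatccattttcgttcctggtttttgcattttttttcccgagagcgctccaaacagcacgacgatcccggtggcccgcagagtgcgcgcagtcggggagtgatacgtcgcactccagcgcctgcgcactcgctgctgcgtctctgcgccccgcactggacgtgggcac
MRPS9, chr2:105037819-105037982, plus strand, fell: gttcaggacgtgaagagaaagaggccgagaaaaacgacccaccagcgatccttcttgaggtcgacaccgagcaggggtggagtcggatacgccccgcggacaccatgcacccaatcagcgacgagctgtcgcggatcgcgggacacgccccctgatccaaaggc
MRPS6, chr21:34073328-34073522, plus strand, fell: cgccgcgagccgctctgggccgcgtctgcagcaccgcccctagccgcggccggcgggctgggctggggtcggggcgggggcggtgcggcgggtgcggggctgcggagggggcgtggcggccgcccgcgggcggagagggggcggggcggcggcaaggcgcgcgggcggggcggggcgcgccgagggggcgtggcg
MRPL19, chr2:75646533-75646782, plus strand, fell: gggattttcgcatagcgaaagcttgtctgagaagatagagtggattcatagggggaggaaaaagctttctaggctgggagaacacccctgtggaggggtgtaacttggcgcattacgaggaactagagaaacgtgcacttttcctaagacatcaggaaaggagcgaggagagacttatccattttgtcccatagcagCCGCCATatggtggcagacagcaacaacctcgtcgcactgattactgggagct
The MRPS22 stretch, at 1 of its 3 RefSeq starts, holds the ETS word on both strands, side by side. The MRPL47 stretch is the whole gap between the exons of MRPL47 and of NDUFB5, its neighbour on the other strand. The MRPL19 stretch holds the YY1 word on the other strand. The other 5 stretches hold none of the 3 words; the full windows of MRPL50, MRPL36 and MRPS9 hold the YY1 word and that of MRPS16 the ETS word outside the printed run, while the MRPS6 window holds none. The MRPL36, MRPS22 and MRPS6 stretches lie upstream of a RefSeq start of their gene but inside the span that GENCODE gives the gene.

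Both subunits held genes in either direction. Of 51 large-subunit genes, 7 rose and 18 fell (49%, against 53.1% of all tested genes), and their log2 fold changes had a median of -0.07. Of 26 small-subunit genes, 3 rose and 5 fell (30.8%), and the median was 0.00. Proteins with a bacterial counterpart are encoded by 46 of the genes, of which 4 rose and 14 fell (39.1%), and those without one by 31, of which 6 rose and 9 fell (48.4%). The 10 small-subunit genes without a counterpart were mostly close to 0: MRPS22 and MRPS35 rose, none fell, and the others lay between -0.10 and 0.13. The difference in counts between subunits or origins was not tested.

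The 8 genes on chromosome 2 all fell, without overlap between the groups. Their median log2 fold change was -0.64, where all 852 tested genes of chromosome 2 had a median of -0.56 and 76.6% of them fell. These 8 are 6 large-subunit genes (MRPL35, MRPL19, MRPL30, MRPL33, MRPL53 and MRPL44) and 2 small-subunit genes (MRPS9 and MRPS5), and they lie apart from each other along the chromosome. Among the other 70 genes, 15 fell, which is 21.4% (23.2% of tested genes off chromosome 2), and 10 rose, which is 14.3% (27.8%).

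MRPL35 (chr2:86199355-86213794), a large-subunit protein with a bacterial counterpart, fell furthest of the 8. It stood at 2025, 1958 and 2115 normalized counts in shSCR and at 1039, 948 and 1081 in shLTBP1 (log2 fold change -0.99, SE 0.06, limma adjusted p = 1.42e-06). The shLTBP1 mean was 50.3% of the control mean, and the groups did not overlap. MRPS9 (chr2:105037983-105099960), a protein of the head of the small subunit, stood at 1652, 1627 and 1630.0 in shSCR and at 785, 942 and 779.7 in shLTBP1 (log2 fold change -0.97, SE 0.08, limma adjusted p = 5.33e-06). Of the shLTBP1 libraries, replicate 2 was the highest, and still far below every control. MRPL19 (chr2:75646783-75690851), whose upstream stretch is given above, stood at 4358, 4397 and 4117 against 2580.4, 2398 and 2295 (log2 fold change -0.82, SE 0.06, limma adjusted p = 1.83e-06).

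The remaining chromosome 2 genes fell by less. MRPL30 (chr2:99181079-99197626) stood at 3015, 3168 and 2771 in shSCR and at 1952, 1852 and 1866 in shLTBP1 (log2 fold change -0.66, limma adjusted p = 1.21e-05). MRPL33 (chr2:27771717-27988087), one of the smallest large-subunit proteins, went from 921 ± 12.3 to 598 ± 37.6 (SD, n = 3 each; log2 fold change -0.62), but its annotated span overlaps BABAM2 on the same strand. MRPS5 (chr2:95087207-95149434), a small-subunit protein, went from 2805 ± 63.1 to 1898 ± 82.3 (log2 fold change -0.56). The smallest falls were those of MRPL53 (chr2:74471958-74473322), which has no bacterial counterpart, at -0.44, and of MRPL44 (chr2:223957404-223967714), at -0.25. The annotated spans of MRPL30, MRPS5 and MRPL53 also overlap a coding gene on the same strand. MRPL44, a large-subunit protein with a ribonuclease-like fold, lies towards the end of the long arm, and its values of 2109, 2039 and 2061 in shSCR and 1698, 1755 and 1785 in shLTBP1 did not overlap. The 8 genes thus spanned a range from 50.3% to 84.3% of the control mean.

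Outside chromosome 2, the 3 largest falls were those of MRPL36, MRPS6 and MRPL39. MRPL36 (chr5:1798386-1801366), the counterpart of a very small zinc-binding protein of the bacterial large subunit, had the largest difference of all 78 genes. It stood at 897, 885 and 866 normalized counts in shSCR and at 399.7, 413 and 346 in shLTBP1 (log2 fold change -1.19, SE 0.08, limma adjusted p = 2e-06), which left 43.8% of the control mean. The median of its neighbours, 25 tested genes on each side, differed by -0.88. MRPS6 (chr21:34073224-34143034), a small-subunit protein at the platform, stood at 3129, 3452 and 3334 in shSCR and at 1732, 1795 and 1915 in shLTBP1 (log2 fold change -0.87, SE 0.06, limma adjusted p = 1.76e-06). Its span holds SLC5A3 on the same strand, so reads of the pair may not be fully separated. MRPL39 (chr21:25585656-25607517), a large-subunit protein that resembles a part of threonyl-tRNA synthetase, fell evenly, from 1608, 1625 and 1600.3 to 1232, 1219.8 and 1224 (log2 fold change -0.39, limma adjusted p = 0.000122). Both chromosome 21 members therefore fell, and the median of all 129 tested genes of chromosome 21 was -0.39.

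The other 12 genes that fell lay on 10 chromosomes and did so by little, with log2 fold changes of -0.34 to -0.17. MRPS24 (chr7:43866558-43869893), a small-subunit protein at the mRNA entry, went from 2285 ± 34.5 to 1807 ± 141, and MRPL40 (chr22:19431902-19436075), a large-subunit protein without a bacterial counterpart, from 1413 ± 45.6 to 1133 ± 36.3 (adjusted p = 0.0014 and 0.00112 by limma; SD, n = 3). MRPL3, the member with the highest level per kilobase of transcript, fell from 6164 ± 179 to 5462 ± 119. The remaining 9 were MRPL52, MRPL23, MRPS30, MRPS18C, MRPL32, MRPL2, MRPL41, MRPS18A and MRPL37. Of these, MRPL23 lost its call without shSCR replicate 2 (adjusted p = 0.0548), and MRPL52 without any 1 of shSCR replicates 2 and 3 and shLTBP1 replicate 1 (adjusted p up to 0.103).

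The rises were fewer and smaller. MRPS22 (chr3:139005806-139357223), a small-subunit protein without a bacterial counterpart, rose most. It stood at 1190.4, 1131 and 1112 normalized counts in shSCR and at 1859.8, 1961 and 1659.6 in shLTBP1 (log2 fold change 0.67, SE 0.07, limma adjusted p = 3.21e-05), so that the lowest shLTBP1 library lay above the highest control. MRPL47 (chr3:179588285-179604654), a large-subunit protein near the exit of the peptide tunnel, stood at 1321, 1233 and 1393 in shSCR and at 1647, 2125 and 1847 in shLTBP1 (log2 fold change 0.50, SE 0.09, limma adjusted p = 0.00112). The shLTBP1 libraries spread more than the controls, without overlap. MRPL50 (chr9:101387633-101398614), without a bacterial counterpart, stood at 1188, 1210.1 and 1225 in shSCR and at 1536, 1745 and 1639.8 in shLTBP1 (log2 fold change 0.44, SE 0.06, limma adjusted p = 0.000221). MRPL48 (chr11:73787316-73865133), likewise without one, stood at 879.6, 853 and 889.9 against 1135, 1102 and 1095 (log2 fold change 0.35, SE 0.06, limma adjusted p = 0.000697).

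MRPS16 (chr10:73248843-73252693), a small-subunit protein with a bacterial counterpart, stood at 2714, 2675 and 2622 in shSCR and at 3211, 3433 and 3353 in shLTBP1 (log2 fold change 0.32, SE 0.05, limma adjusted p = 0.000339). Its annotation overlaps DNAJC9 on the same strand. MRPL54 (chr19:3762664-3768575) was the last of the 6 largest rises, at 350.0, 379 and 372 against 431, 418 and 436 (log2 fold change 0.22, limma adjusted p = 0.0359). Its values did not overlap, but the call was lost when any library other than shLTBP1 replicate 2 was left out (adjusted p up to 0.121) and its log2 fold change was -0.00 with GC content and length trends removed. MRPL24, MRPS35, MRPL18 and MRPL49 rose by 0.17 to 0.22. Of these, MRPL24 lost its call without any 1 of shSCR replicates 1 and 2 and shLTBP1 replicate 2 (adjusted p up to 0.0791), and MRPL18 without any 1 of shSCR replicates 1 and 3 and shLTBP1 replicates 1 and 2 (adjusted p up to 0.109). MRPL55 had a log2 fold change of 0.24 and narrowly missed the threshold (adjusted p = 0.0534).

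**Figure D2:**
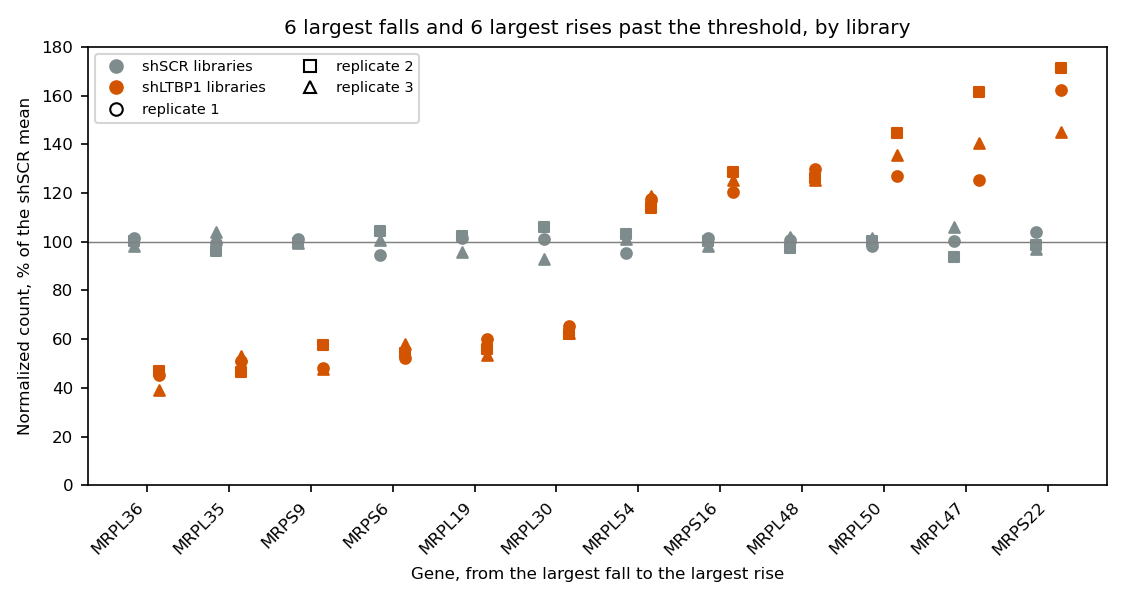
Normalized count of the 6 members with the largest falls and the 6 with the largest rises past the threshold, as percent of the mean of the shSCR libraries, 1 point per library (grey shSCR, orange shLTBP1, symbol shape for the replicate number). In each of the 12 genes the orange points lie on one side of the grey ones; MRPL36 is lowest at 43.8% and MRPS22 highest at 159.7% on average.

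The other 45 genes did not pass, with log2 fold changes of -0.18 to 0.24. None of the 8 members on chromosome 17 passed, where 53.1% of all tested genes did, and they lay between -0.08 and 0.11. The 797 tested genes of chromosome 17 had a median of 0.05, and the share of them that passed was not counted. MRPL12 (chr17:81703357-81707526), the protein of the flexible stalk that recruits translation factors, stood at 2561, 2729 and 2675 in shSCR and at 2988, 3036 and 2604 in shLTBP1, so the groups overlapped (log2 fold change 0.11, limma adjusted p = 0.174). MRPL58, a peptidyl-tRNA hydrolase that rescues stalled ribosomes and is built into the large subunit, was at 0.09 on the log2 scale (limma adjusted p = 0.353). MRPS36, the 2-oxoglutarate dehydrogenase protein, stood at 609, 530.4 and 532 against 553, 666 and 553 (log2 fold change 0.08, limma adjusted p = 0.501).

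The MRPS18 paralogs encode 3 proteins that occupy different places in the ribosome and differed in their calls. MRPS18A (chr6:43671303-43687791), in the large subunit, stood at 1970.1, 1826 and 1867 in shSCR and at 1603, 1615 and 1771 in shLTBP1 (log2 fold change -0.18, limma adjusted p = 0.0267). MRPS18C (chr4:83455932-83469735), the closest to the bacterial protein, stood at 1421, 1256 and 1299 against 1201, 1034 and 1032 (log2 fold change -0.28, limma adjusted p = 0.012). MRPS18B (chr6:30617709-30626395), in the small subunit without a place in the bacterial one, stood at 1846, 1855 and 1735 against 1849.6, 1691 and 1556, with overlap (log2 fold change -0.10, limma adjusted p = 0.273). The call of MRPS18C was lost without shSCR replicate 1 (adjusted p = 0.0532), and that of MRPS18A without any 1 of shSCR replicates 1 and 3 and shLTBP1 replicates 1 and 2 (adjusted p up to 0.105). The difference between the paralogs was not tested.

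Levels per kilobase of transcript, over all 6 libraries, ran from 277 normalized counts per kilobase for MRPS25 to 3407 for MRPL3, with a median of 1097, against 314 for all tested genes. MRPS34 (2986) and MRPL28 (2913) followed MRPL3, and MRPL22 (299) and MRPS23 (306) stood above MRPS25. These values depend on which transcript is taken for the length, here the median over the main coding transcripts of GENCODE 29. The fold change showed little relation to level or transcript: across the 78 genes Spearman's rho with log2 fold change was -0.03 for the mean normalized count, 0.04 for transcript length and 0.08 for GC content.

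Members tended to differ between the groups in the direction of the genes beside them. Across the 78 genes, the log2 fold change of a member and the group difference of the median of its neighbours (25 tested genes on each side) had a Pearson's r of 0.82 and a Spearman's rho of 0.57, and over the 70 off chromosome 2 the values were 0.72 and 0.42. Neighbourhoods on 1 chromosome overlap, so the points are not independent and no test is given. With the neighbour median subtracted from every gene in every library, 7 members were higher (8.97%, with 24.1% of all tested genes) and 21 lower (26.9%, with 24.7% of all), 28 in all (35.9%, with 48.8%). Of the 33 genes called above, 21 were called in the same direction, 11 lost the call and 1 was called in the other direction, while 6 others were called newly. What sets the shared level of neighbours was not tested.

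On this scale the chromosome 2 genes separated. MRPL35 was at -0.44, MRPS9 at -0.32 and MRPL19 at -0.25, all still lower (limma adjusted p = 0.000347, 0.00849 and 0.0045). MRPL30, MRPL33 and MRPS5 were at -0.14, -0.02 and -0.01 and did not pass (adjusted p = 0.104, 0.814 and 0.837). MRPL53 was at 0.17 (adjusted p = 0.126), and MRPL44 was higher than its neighbours, at 0.19 (adjusted p = 0.0082). Elsewhere MRPL36 was at -0.32 (adjusted p = 0.0142) and MRPS6 at -0.44 (adjusted p = 0.000392), both still lower, and MRPL39 at -0.10 (adjusted p = 0.155). Of the rises, MRPS22 was at 0.41, MRPS16 at 0.28 and MRPL48 at 0.18, which passed (adjusted p = 0.00494, 0.000852 and 0.0236). MRPL47 was at 0.03 and MRPL50 at 0.17, which did not (adjusted p = 0.808 and 0.0978). A member could also stand further from its neighbours than from the controls: MRPL23 was at -0.49, MRPS30 at -0.42, MRPL40 at -0.40 and MRPL41 at -0.39, against -0.31, -0.30, -0.32 and -0.24 before.

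**Figure D3:**
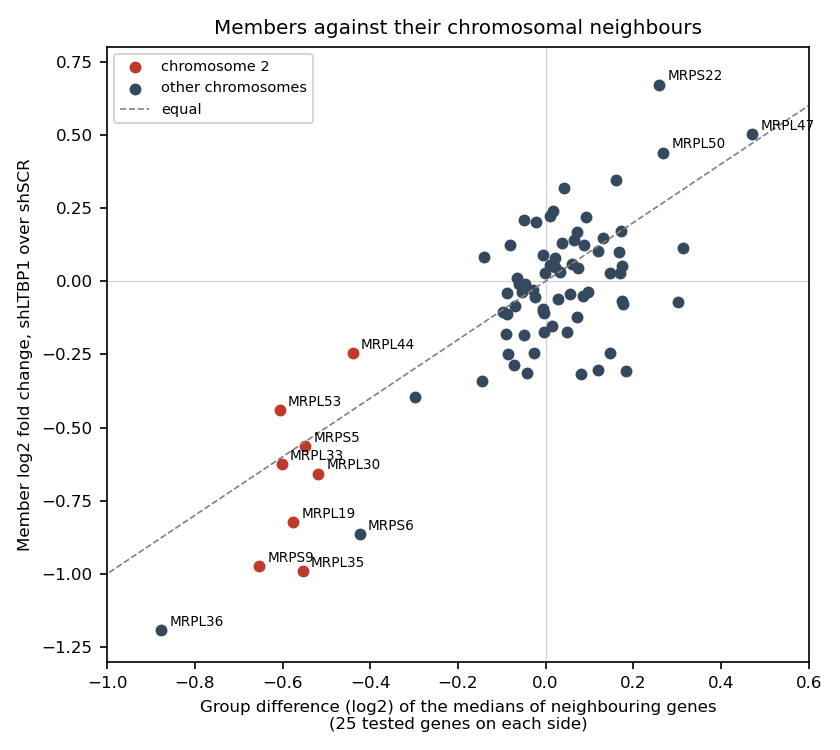
Log2 fold change of each member (vertical axis) against the group difference of the median of its 25 tested neighbours on each side (horizontal axis, log2), chromosome 2 members in red. Points scatter around the dashed line of equality; MRPL44 and MRPL53 lie above it, and MRPL35, MRPS9, MRPS6 and MRPL36 below it.

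Removing trends with GC content and transcript length moved the members downwards: 9 were then higher (11.5%, with 26.4% of tested genes) and 30 lower (38.5%, with 28%), 39 in all (50%, with 54.4%), and their median log2 fold change was -0.11. With the genes of chromosome 2 left out of the fit, 10 members rose and 15 fell of 70, or 35.7% (50.6% of the genes then tested passed, 27.6% as rises and 23.1% as falls).

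Many members share a start region with a gene on the other strand. By outermost GENCODE starts, 25 members had such a head-to-head partner with a start from 1000 bases upstream to 500 bases downstream, in 25 pairs. Both genes were tested in 23 pairs, and both passed in 6, of which 5 moved in the same direction. Of all tested genes, taken singly, 53.1% passed, and such pairs were not counted for other genes. MRPL36 and NDUFS6, a subunit of respiratory complex I, have outermost starts 34 bases apart, and NDUFS6 fell from 1857 ± 90.4 to 925 ± 95.3 (SD, n = 3 each; log2 fold change -1.01, against -1.19 for MRPL36). MRPL47 and NDUFB5, also a complex I subunit, have starts 36 bases apart around the stretch with the ETS word printed above, and NDUFB5 rose from 1217 ± 154 to 1844 ± 45.6 (log2 fold change 0.61, against 0.50 for MRPL47). MRPL30 and MITD1 fell (-0.66 and -0.37), as did MRPL32 and the proteasome subunit PSMA2 (-0.25 and -0.36), and MRPL50 and ZNF189 rose (0.44 and 0.40). MRPL32 and AC010132.3 went opposite ways (-0.25 and 0.63). In the other pairs only the partner passed (5), only the member (5) or neither (7), the last with MRPL46 and MRPS11, a large-subunit and a small-subunit gene with starts 34 bases apart (-0.05 and 0.14). Over the 23 pairs Pearson's r between the fold changes was 0.63 and Spearman's rho 0.39, as a description, since partners are also chromosomal neighbours.

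Summed over the 78 genes, normalized counts came to 136542, 137795 and 135505 in shSCR and to 126649, 133118 and 124641 in shLTBP1, or 93.8% of the control mean, without overlap. As a share of all normalized counts this was 0.443% ± 0.00378 and 0.420% ± 0.0153 (SD, n = 3 each). The 8 chromosome 2 genes gave 76.6% of the difference. Their sum was 17374 ± 382 in shSCR and 10882 ± 207 in shLTBP1 (62.6%), with no overlap. The other 70 genes summed to 119240.0 ± 846 and 117254 ± 4286 (98.3%), and here the groups overlapped, since shLTBP1 replicate 2 was the highest of the 6 libraries and replicates 1 and 3 the lowest. The large-subunit sum was at 92.9% of the control mean and the small-subunit sum at 95.5%.

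**Figure D4:**
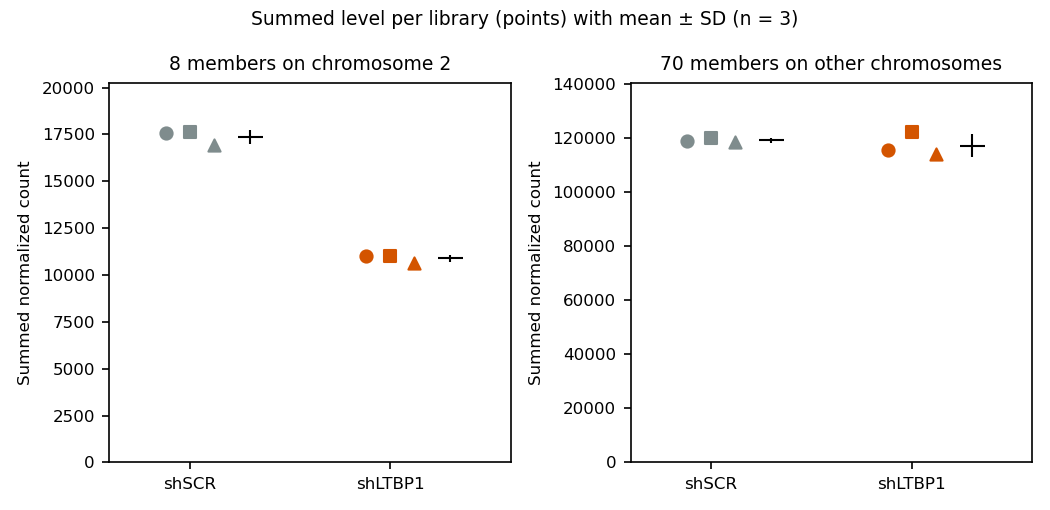
Summed normalized count per library (points; shape for the replicate number) with the mean ± SD (n = 3) beside them, for the 8 members on chromosome 2 (left) and the 70 on other chromosomes (right). The chromosome 2 sums are 17374 against 10882 on average and do not overlap, whereas the other sums are 119240.0 against 117254 and overlap.

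The shLTBP1 libraries were not equally spread around their mean for these genes. Replicate 2 was the highest of its group for 51 of the 78 genes, with a median deviation of 0.08 (log2) from the group mean, and replicate 3 the lowest for 39, with a median deviation of -0.04. The shSCR libraries had median deviations of -0.01 to 0.01, and the medians over all tested genes were within 0.01 of 0 in every library. Without shLTBP1 replicate 2, 9 members rose (11.5%, with 25.2% of all tested genes) and 25 fell (32.1%, with 25.9%). Without shSCR replicate 3, the library with globin counts, 8 rose (10.3%, with 22.8%) and 21 fell (26.9%, with 23.2%).

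Other proteins of the same machinery, taken from lists of known genes, showed a like mixture. Of all tested genes, 26.3% rose and 26.8% fell, 53.1% in all. Of 5 further mitoribosome proteins, PTCD3, on chromosome 2, fell from 2805 ± 165 to 1754 ± 192 (log2 fold change -0.68, limma adjusted p = 6.89e-05; SD, n = 3), and DAP3, GADD45GIP1, AURKAIP1 and CHCHD1 lay between -0.15 and 0.14 and did not pass. Of 29 assembly factors, 4 rose and 8 fell (41.4%). DDX28, a helicase, and MPV17L2 rose by 0.36 and 0.32, the rRNA-maturation protein YBEY on chromosome 21 fell by 0.60 and the methyltransferase TRMT61B on chromosome 2 by 0.49, with values of -0.11 and 0.10 once the neighbour median was subtracted. Of 18 translation factors, 5 rose and 4 fell (50%). MTRES1 and C12orf65, which act in ribosome rescue, rose by 0.48 and 0.40 (for C12orf65 adjusted p = 0.0528 without shSCR replicate 2). LRPPRC, which stabilizes mitochondrial mRNAs, fell from 22199 ± 1126 to 12711 ± 1512, and the initiation factor MTIF2 fell by 0.71; both are on chromosome 2, and LRPPRC was at -0.24 and MTIF2 at -0.12 with the neighbour median subtracted. Of 19 mitochondrial aminoacyl-tRNA synthetases, 4 rose and 8 fell (63.2%). RARS2 (0.36) and AARS2 (0.22) rose most, and MARS2 (-0.79, on chromosome 2) and VARS2 (-0.43) fell most. The call of AARS2 was lost without shSCR replicate 1 or shLTBP1 replicate 1 (adjusted p = 0.0668 and 0.0505).

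Of 25 genes for transcription and RNA processing in mitochondria, 4 rose and 10 fell (56%, with 53.1% of all tested genes). HSD17B10, a subunit of the ribonuclease that trims mitochondrial tRNAs, rose from 825 ± 55.8 to 1518 ± 34.4 and the DNA polymerase POLG by 0.45 on the log2 scale, while FASTKD3 on chromosome 5 and PNPT1 on chromosome 2 fell by 0.92 and 0.65. Of 11 regulators of mitochondrial biogenesis, 4 rose and 2 fell (54.5%). GABPB2, a partner of the ETS factor GABPA, and the nuclear receptor ESRRA rose by 0.67 and 0.36, and the coactivator PPARGC1B and GABPA fell by 0.68 and 0.23. GABPA lies on chromosome 21 and was at 0.07 with the neighbour median subtracted. NRF1 and YY1, whose words were looked for above, were at 0.05 and 0.06 (limma adjusted p = 0.654 and 0.35). Of 20 other mitochondrial proteins, 1 rose and 10 fell (55%). TOMM20, an import receptor, rose by 0.14. The call was lost without any 1 library other than shSCR replicate 2 or shLTBP1 replicate 2 (limma adjusted p up to 0.0931). IMMT (-0.74) and HSPD1 (-0.68), both on chromosome 2, fell most.

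The nuclear genes of oxidative phosphorylation and of the cytosolic ribosome had medians near that of the mitochondrial ribosomal proteins. Of 76 tested nuclear genes of oxidative phosphorylation, 6 rose and 23 fell (38.2%, with 53.1% of all tested genes), with a median of -0.06. Of all tested genes, 26.3% rose and 26.8% fell. NDUFB5 and NDUFA5 (0.29) rose most, and NDUFS6 and NDUFB3 (-0.78, on chromosome 2) fell most. Of 82 tested cytosolic ribosomal protein genes, 4 rose and 21 fell (median -0.07). RPL35A (0.46) and RPL22L1 (0.42), both on chromosome 3, rose most, with values of -0.10 and 0.05 once the neighbour median was subtracted, and RPL37A (-0.83) and RPS7 (-0.70), both on chromosome 2, fell most. Of the list genes named here, PTCD3, MPV17L2, YBEY, TRMT61B, MTIF2, MARS2, FASTKD3, PNPT1, HSPD1, NDUFS6, NDUFB3, NDUFB5, GABPA, RPL35A and RPL22L1 no longer passed with the neighbour median subtracted, and with GC content and length trends removed MPV17L2, AARS2 and GABPA did not. In each of these lists that had tested genes on chromosome 2, as among the members, all of those genes fell. Of all 852 tested genes of chromosome 2, 76.6% fell. The regulators of mitochondrial biogenesis had no gene there.

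**Figure D5:**
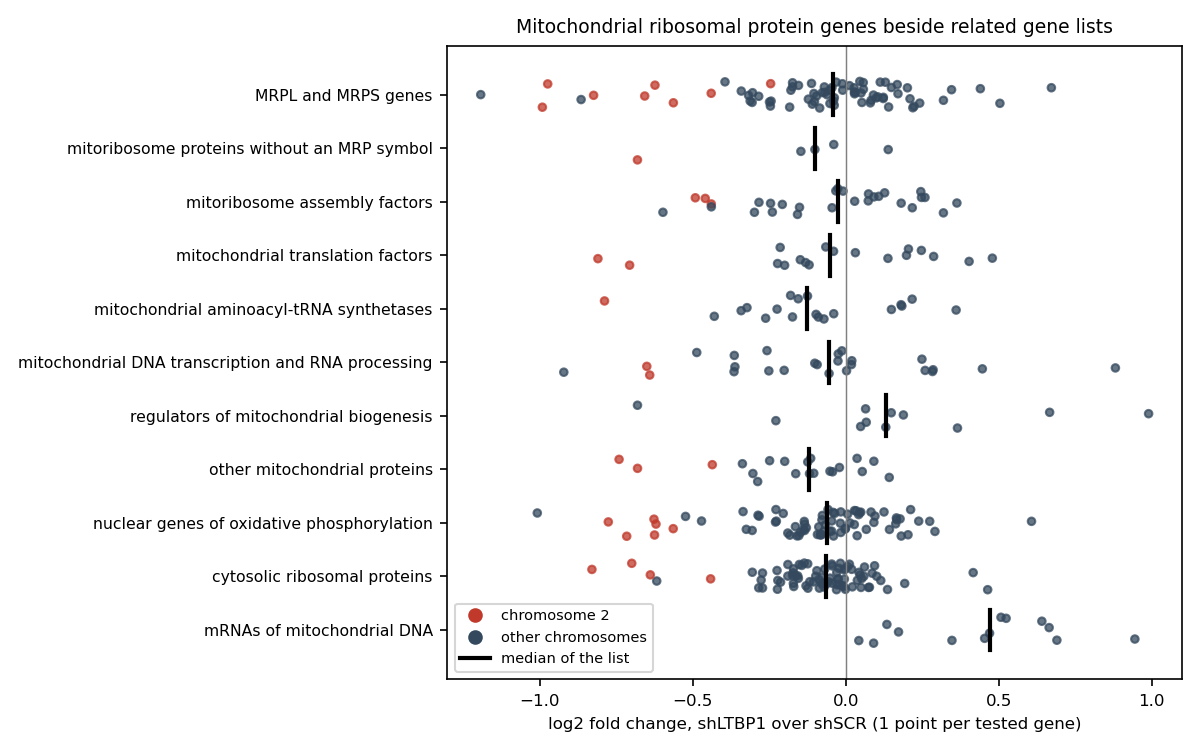
Log2 fold change of every tested gene in the mitochondrial ribosomal protein set and in 10 related lists, 1 point per gene, chromosome 2 genes in red, with the median of each list as a bar. The medians lie between -0.13 and 0.13 except for the mRNAs of mitochondrial DNA, at 0.47, and all red points lie below 0.

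The mRNAs that the mitochondrial ribosome translates were mostly higher in shLTBP1. Of the 13 mRNAs of mitochondrial DNA, 8 rose (61.5%, with 26.3% of all tested genes), none fell and 5 missed the threshold. Their median log2 fold change was 0.47. MT-CYB, the cytochrome b of complex III, stood at 60431, 53976 and 54228 in shSCR and at 99067, 107745 and 118111 in shLTBP1 (log2 fold change 0.94, limma adjusted p = 2.78e-06). MT-CO1, the catalytic subunit of cytochrome c oxidase, stood at 113635, 109356 and 112804 against 171315, 185547 and 185014 (log2 fold change 0.69, limma adjusted p = 1.44e-06). The groups do not overlap in either gene. The 5 that did not pass were MT-ND1, MT-ND3, MT-ND4L, MT-ND5 and MT-ND6, at 0.04 to 0.35. As a share of all normalized counts, the 13 mRNAs made up 2.50%, 2.37% and 2.35% in shSCR and 3.20%, 3.38% and 3.72% in shLTBP1. The share of the 78 ribosomal protein genes was lower in every shLTBP1 library than in every control. For the members not on chromosome 2 the groups overlapped, at 0.384%, 0.390% and 0.385% in shSCR and 0.379%, 0.401% and 0.373% in shLTBP1.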

How the data were processed

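RNA-seq libraries of total RNA, 3 of shSCR and 3 of shLTBP1 MKN28 cells, were made with a directional MGI kit, per the labels. The submitters' processing notes name STAR 2.7.3a, RSEM 1.3.1, DESeq2 and FastQC 0.10.1, and the build hg38; annotation, strand setting, filters and the DESeq2 version: not given in the sources used here. The table's name says that the deposited signal per gene is a read count which the authors put through DESeq2 normalization. The values are fractional and whole reads could not be recovered, so no count test was run and the sequenced depth is unknown. Group and replicate number come from the sample titles.

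Genes with a mean of at least 10 over the 6 libraries (12789) were tested on log2(value + 1) with limma 3.58.1 (R 4.3.3), with group as the only term, a mean-dependent variance trend, 4 residual and 5.6 prior degrees of freedom, two-sided p-values and Benjamini-Hochberg adjustment over all tested genes at 0.05. Fold changes of low genes are understated because of the pseudocount. The fit was tested on simulated data. Positions, transcript lengths and GC content came from GENCODE 29 on GRCh38 (19872 of 19960 identifiers matched), and promoter windows from RefSeq on GRCh38.p14. Motif words were searched on both strands. For subtraction of neighbours, the median of 25 tested genes on each side was taken from each gene in each library; for mitochondrial DNA these neighbours are its own other genes. GC content and length trends were removed with splines of 4 degrees of freedom. Of the 78 members, 34 have a named pseudogene, 13 overlap a coding gene on the same strand and 26 one on the other, so their counts are uncertain to that extent. The 13 are MRPL12, MRPL28, MRPL30, MRPL33, MRPL38, MRPL46, MRPL53, MRPS5, MRPS6, MRPS16, MRPS17, MRPS24 and MRPS28.

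The members and all lists were chosen with earlier results of these data known. The rule for named genes took LTBP1, the 6 largest rises and falls past the threshold, every chromosome 2 member, the MRPS18 paralogs, MRPS36, the 3 highest and lowest per kilobase, and the 2 largest rises and falls of each list. Other genes were named after their values were seen. Lists were described by counts and medians, without set tests.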

Additional observations from a re-analysis of the deposited data

How the results depend on the processing

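The counts of members that rose or fell stayed within 1.5 times of those reported with a pseudocount of 0.5 or 5, a minimum mean of 50 or none, upper quartile, median or quantile scaling, moderation without a trend or made robust, and the subtraction of neighbours. With chromosome 2 left out, 15 members fell in place of 23, since 8 of those lie on it, and LTBP1, on the same chromosome, has no value. With GC content and length trends removed, the median of the members was -0.11 in place of -0.04; the cause was not tested. Leaving out 1 library gave 28 to 34 members past the threshold, 7 to 11 higher and 21 to 25 lower, 21 to 26 of the large and 7 to 9 of the small subunit, medians of -0.07 to -0.02, 100 to 140 list genes (127 with all libraries), and -4.17 to -3.95 for LTBP1. The share of all tested genes that passed moved as well. It was 25.2% higher and 25.9% lower without shLTBP1 replicate 2, and 22.8% and 23.2% without shSCR replicate 3. With all libraries it was 26.3% and 26.8%. It was not taken for the fits that left out any of the other libraries. For those fits, a change among the members cannot be told from a change among all genes. Of 33 called members, 26 kept their call and direction without any 1 library and 17 under every alternative that gave them a value. Some genes named above that had passed reversed direction. With the neighbour median subtracted these were MRPL53 (0.17), MRPL44 (0.19), MRPL49 (-0.0011), RPL35A (-0.10), TRMT61B (0.10) and GABPA (0.072). With GC content and length trends removed it was MRPL54 (-0.00028). Named genes that had not passed also changed sign with the neighbour median subtracted. Among them, MRPL12 went from 0.11 to -0.20 and passed as lower (limma adjusted p = 0.0185). MT-ND1, MT-ND3, MT-ND4L and MT-ND5 went to -0.40, -0.44, -0.31 and -0.35 and also passed as lower. Their neighbours are the other genes of mitochondrial DNA, whose 13 mRNAs had a median log2 fold change of 0.47 before the subtraction. These values therefore describe smaller rises than those of the neighbours, not falls against the controls. For MRPL12 the cause was not tested. In all, 12 of the 127 list genes changed sign with the neighbour median subtracted, and 4 of them passed in the other direction: RPL31 (-0.44 to 0.15), GFM1 (0.25 to -0.23), FASTKD2 (-0.44 to 0.26) and HSPE1 (-0.44 to 0.18).

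The values gave no sign that replicate numbers pair the libraries. Deviations of same-numbered libraries from their group means correlated at -0.01, 0.06 and -0.00, and not every library correlated best with its own number. The sample titles do not say whether same-numbered libraries were made together, and these correlations cannot exclude it. With the replicate block, 33 members passed, 10 higher and 23 lower, the same counts as without it. The share of all tested genes was not taken for that fit. Depth is unknown, so no counting error can be given.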
